A study of Mus musculus with 11 samples.

Results

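The collagen prolyl and lysyl hydroxylases of the mouse were examined at the level of open chromatin. The 9 genes form 3 families of 3 genes each: the catalytic subunits of the prolyl 4-hydroxylases (P4ha1, P4ha2, P4ha3), the lysyl hydroxylases (Plod1, Plod2, Plod3) and the prolyl 3-hydroxylases (P3h1, P3h2, P3h3). They were chosen by name, and a region was assigned to a gene where it overlapped the gene or the 20 kb before its 5′ end. By that rule 64 of 94963 accessible regions belonged to the 9 genes.

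ATAC-seq, an assay that uses the transposase Tn5 to cut open chromatin, was run on 11 cultures of MPC2, a single clone of conditionally immortalised mouse mesenchymal progenitor cells. The groups were undifferentiated cells (labelled MSC) with vehicle (DMSO, n = 3), MSC with 50 uM FG-4592 (Roxadustat, n = 3), osteocytes obtained by 3 weeks of osteogenic differentiation with vehicle (n = 2), and such osteocytes with 50 uM FG-4592 (n = 3), and all groups were treated for 48 h. FG-4592 inhibits the prolyl hydroxylases that mark the HIF transcription factors for degradation. The study asked how HIF stabilisation alters chromatin at either cell stage, but the list used here gives 1 level per region over all samples, so neither drug nor differentiation could be compared, levels carry no error between replicates, and sample depth was unknown. Of 10 osteoblast and osteocyte marker genes, 6 had a region at the 5′ end, among them Runx2, Sp7 and Dmp1, and Phex, Mepe, Sost and Pdpn had none. The counts were 3 of 5 for mesenchymal, 1 of 5 for blood and 2 of 4 for endothelial markers, and 59.1% of all coding genes had such a region, so most of these counts are near the background. Where such a region was present, its median level per kb of width was 3.80 log2 CPM for the osteoblast and osteocyte markers, 4.46 for mesenchymal, 3.76 for blood and 2.21 for endothelial markers, all below the 4.77 of coding genes. No muscle marker of 3 (Myod1, Myog, Myf5) had any region, whereas all 3 adipocyte markers (Pparg, Adipoq, Plin1) had one at the 5′ end, with a median of 3.83.

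Collagen hydroxylases act in the endoplasmic reticulum on nascent procollagen chains and require oxygen, 2-oxoglutarate, iron and ascorbate. Prolyl 4-hydroxylation stabilises the triple helix. Lysyl hydroxylation supplies the residues for glycosylation and for the cross-links that give bone matrix its strength. Prolyl 3-hydroxylation modifies few residues, and P3H1 works in a complex with cartilage-associated protein and cyclophilin B. The enzymes belong to the same dioxygenase superfamily as the HIF prolyl hydroxylases that FG-4592 targets. Several of these genes, P4ha1, P4ha2 and Plod2 among them, are known HIF targets, and HIF binds the hypoxia response element (HRE), whose core is ACGTG or GCGTG.

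Promoter sequence is shown for the genes with the highest (P4ha1) and lowest (P4ha3) 5′ end level of the 9, and for 1 gene of each other family. Each run is from mm10, 5′ to 3′ in the direction of the named gene, with HRE cores of either strand in capitals. The P4ha1, P4ha3 and Plod1 runs are the 250 bases before the RefSeq start (build GRCm38.p6, the same assembly). They lie at chr10:59323046-59323295 on the plus strand, chr7:100285270-100285519 on the plus strand and chr4:147936777-147937026 on the minus strand. The P3h1 run is the whole 202 bases between the divergent starts of AU022252 and P3h1, at chr4:119232713-119232914 on the plus strand.
P4ha1: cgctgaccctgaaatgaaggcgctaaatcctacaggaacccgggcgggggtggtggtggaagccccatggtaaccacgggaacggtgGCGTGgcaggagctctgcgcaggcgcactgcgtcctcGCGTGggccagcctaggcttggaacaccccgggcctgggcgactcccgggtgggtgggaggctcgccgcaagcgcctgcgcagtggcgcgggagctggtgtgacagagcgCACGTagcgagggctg
P4ha3: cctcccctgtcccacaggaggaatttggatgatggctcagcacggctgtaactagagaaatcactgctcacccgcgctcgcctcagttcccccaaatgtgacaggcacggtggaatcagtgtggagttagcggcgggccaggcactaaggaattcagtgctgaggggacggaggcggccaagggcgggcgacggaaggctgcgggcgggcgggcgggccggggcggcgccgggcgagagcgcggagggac
Plod1: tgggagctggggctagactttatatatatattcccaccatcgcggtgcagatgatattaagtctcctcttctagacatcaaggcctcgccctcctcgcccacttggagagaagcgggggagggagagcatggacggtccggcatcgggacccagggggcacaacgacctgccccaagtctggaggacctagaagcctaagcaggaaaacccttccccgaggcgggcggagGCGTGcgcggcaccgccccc
P3h1: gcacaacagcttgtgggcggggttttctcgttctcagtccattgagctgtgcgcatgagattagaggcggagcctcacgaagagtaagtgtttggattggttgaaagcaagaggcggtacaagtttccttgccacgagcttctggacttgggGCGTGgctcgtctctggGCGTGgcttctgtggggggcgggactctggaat
The P4ha1 run holds 3 HRE cores, the P3h1 run 2, the Plod1 run 1 and the P4ha3 run 0. GC content was 69.6% in the P4ha1 run and 67.2% in the P4ha3 run, whereas over the whole 5′ end regions it was 62.6% and 78.7%.

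Each of the 9 genes had a region no more than 1000 bp from one of its annotated starts, as 64.1% of 21938 protein-coding genes did. All 9 also had one within 1000 bp of the 5′ end of the gene, against 59.1% of coding genes. The region itself covered the 5′ end in 7 of the 9 genes, and a region did so in 51.4% of coding genes. That of P3h3 stopped 7 bp short of it, and that of P4ha2 began 282 bp inside the gene. The 64 regions comprised 9 at the 5′ end, 5 within 1000 bp of another annotated start of the same gene, 36 elsewhere in the gene body and 14 upstream, and 8 of them lay within 1000 bp of the start of another gene. Of the 5 near another start, 1 covered it, and of the 8 near the start of another gene, 6 covered it.

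The level of a region is given as log2 CPM, the log2 of cut counts scaled to library size, and also per kb of width, since merged regions ran from 200 to 3628 bp. The 64 regions had a median level of 2.75 log2 CPM (95% order-statistic interval 2.42 to 3.46) and all 94963 regions a median of 2.12. Per kb the medians were 3.63 and 3.25. The 9 regions at 5′ ends had a median of 4.70 log2 CPM per kb, and the 11643 regions at 5′ ends of coding genes a median of 4.71. The typical hydroxylase promoter was thus level with the typical coding promoter. The 14 regions within 1000 bp of any annotated start of the 9 genes had a median of 4.56 log2 CPM per kb, against 4.33 for such regions of all coding genes.

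**Figure D1:**
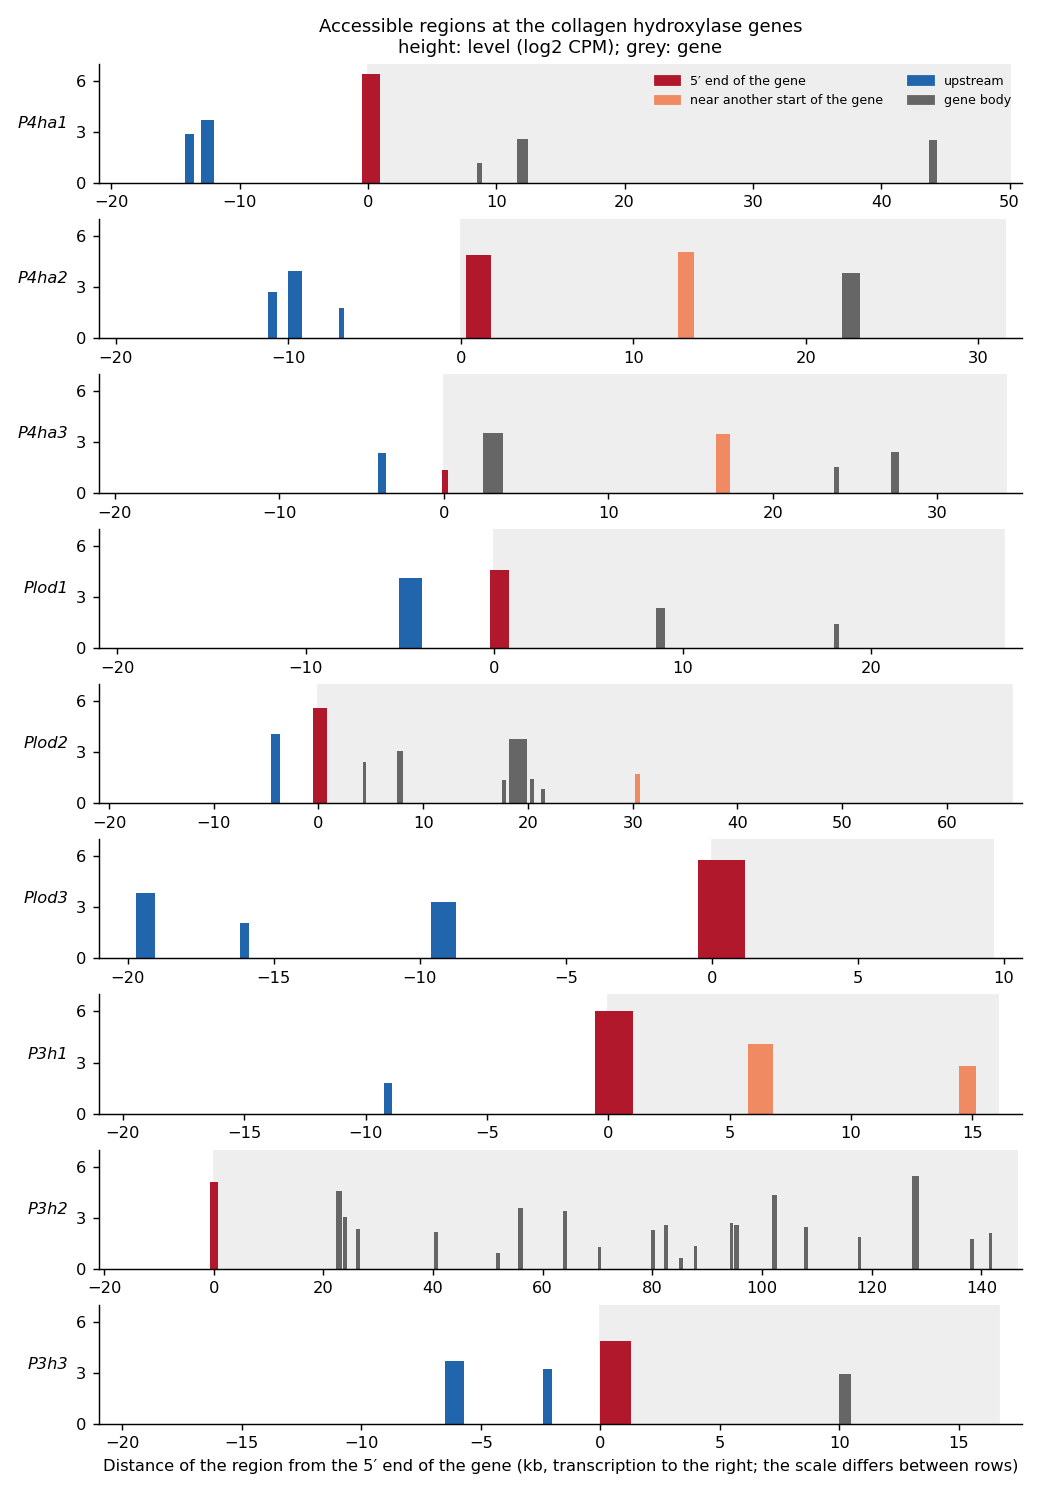
Accessible regions at each gene, by distance from the gene's 5′ end (kb, own scale in each row), with bar height giving the level in log2 CPM and grey the gene. The 5′ end region is the highest bar in 6 of the 9 genes, the exceptions being P4ha2, P4ha3 and P3h2.

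P4ha1 encodes the main catalytic subunit of prolyl 4-hydroxylase in most tissues and lies on the plus strand at chr10:59323296-59373304. Its 5′ end region (chr10:59322829-59324227, exon 1 and intron 1) was the highest of all 64, at 6.40 log2 CPM (84.2 CPM) and 5.91 per kb. Of the coding genes with a 5′ end region, 91.5% had a lower level per kb. The other 5 regions ranged from 1.14 to 3.72 log2 CPM, and the 5′ end region held 71.1% of the CPM summed over the 6 regions. An upstream pair centred 13899 bp and 12490 bp before the 5′ end had levels of 2.86 and 3.72 log2 CPM. The farther of them was 74.7% repeat sequence, and no other of the 64 regions was repeat over as much as 50% of its length. Further regions lay in intron 1, at 1.14 and 2.57 log2 CPM, and over coding exon 12, at 2.52.

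P4ha2 encodes a second catalytic subunit, abundant in chondrocytes and osteoblasts, and lies on the plus strand at chr11:54100095-54131665. Accessibility there was divided between a pair of regions. The 5′ end region (chr11:54100377-54101826) had a level of 4.90 log2 CPM, and a region in intron 5 (chr11:54112691-54113637), 13069 bp from the 5′ end, one of 5.04. The intronic region lay over the start of an annotated noncoding transcript of P4ha2. Per kb it stood at 5.11 and the 5′ end region at 4.36, a level above that of 35.2% of coding genes. The 5′ end region held 29.3% of the CPM at the gene and the intronic region 32.3%. The RefSeq start of P4ha2 is 829 bp inside the longest GENCODE transcript and falls within the 5′ end region. A region in intron 9 had a level of 3.82 log2 CPM, and 3 upstream regions had levels of 2.70, 3.91 and 1.76.

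P4ha3 encodes the least abundant of these subunits and lies on the plus strand at chr7:100285520-100319699. Its 5′ end region (chr7:100285425-100285762, exon 1 with coding sequence) was 338 bp wide and had the lowest level of the 9, 1.38 log2 CPM (2.60 CPM) and 2.94 per kb. Only 6.36% of coding genes with a 5′ end region were lower per kb. The P4ha1 and P4ha3 regions differed 32.4-fold in CPM and 7.83-fold in CPM per kb, so much of the first difference went with width. Regions farther into P4ha3 were higher than its 5′ end, at 3.51 log2 CPM in intron 1 (2978 bp from the 5′ end) and 3.46 in intron 5 (16974 bp, with an annotated start 465 bp away). The 5′ end region held 6.75% of the CPM at the gene. This low region was nevertheless CpG-rich, with 78.7% GC and a CpG observed to expected ratio of 1.02, the highest of the 9 on both measures. That ranking compares unlike widths, since the other 5′ end regions were 995 to 1626 bp wide.

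**Figure D2:**
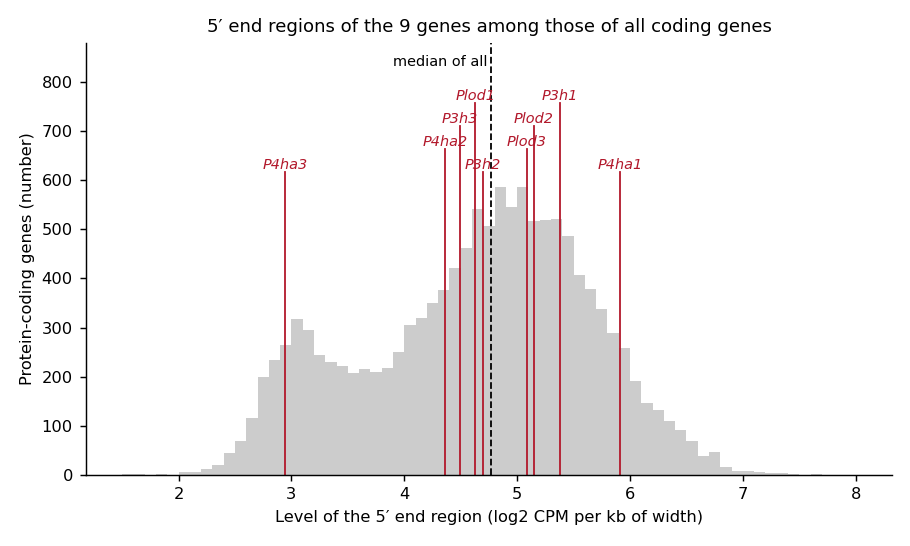
Level of the 5′ end region (log2 CPM per kb of width) for all coding genes that have one (grey histogram, number of genes) and for the 9 hydroxylase genes (red lines), with the coding gene median dashed. P4ha1, P3h1, Plod2 and Plod3 lie above the median of 4.77, the other 5 genes below it, and P4ha3 lies in the lower of the 2 humps of the histogram.

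Plod1 encodes the lysyl hydroxylase of helical sites that is defective in kyphoscoliotic Ehlers-Danlos syndrome, and lies on the minus strand at chr4:147909753-147936767. At the 5′ end, the region chr4:147935999-147936993 had a level of 4.62 log2 CPM and 4.63 per kb, above 44.5% of coding genes. A region centred 4448 bp upstream, at 4.13 log2 CPM, covered the start of the neighbour 2510039O18Rik. Regions in introns 6 and 14 had levels of 2.35 and 1.44.

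Plod2 encodes the lysyl hydroxylase of collagen telopeptides, which directs the cross-linking type of bone, and lies on the plus strand at chr9:92542223-92608428. The region at its 5′ end (chr9:92541719-92543063), which also covered the start of the transcript Gm38391, had a level of 5.57 log2 CPM and 5.15 per kb, above 66.5% of coding genes. Intron 1 held 6 further regions with levels from 0.82 to 3.79 log2 CPM. The widest of all 64 regions, at 1704 bp, was the 3.79 one, 19087 bp from the 5′ end. A region 4068 bp upstream had a level of 4.05 and a region in intron 2, with an annotated start 655 bp away, one of 1.70.

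Plod3 encodes an enzyme with lysyl hydroxylase and glycosyltransferase activity, and lies on the plus strand at chr5:136987019-136996648. It is the shortest of the 9 genes and had no region in its body beyond the one at the 5′ end (chr5:136986534-136988159), which had a level of 5.79 log2 CPM and 5.08 per kb, above 63.8% of coding genes. That region also held the start of Znhit1 on the other strand, so its level cannot be apportioned between the 2 genes. The 3 upstream regions had levels of 3.84, 2.06 and 3.32 log2 CPM, and the farthest of them covered the start of Cldn15. That one was also the nearest inside the 20 kb limit for any of the 9 genes, with its near edge 19057 bp upstream of Plod3. The nearest outside the limit was again at Plod3, 20431 bp upstream, at 1.99 log2 CPM. Per kb the 3 Plod promoters were close to each other, and the highest, Plod2, exceeded the lowest, Plod1, 1.43-fold in CPM per kb. Not divided by width they were farther apart and Plod3 was highest, with 55.2 CPM, 47.6 at Plod2 and 24.6 at Plod1.

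P3h1 encodes the prolyl 3-hydroxylase whose loss causes recessive osteogenesis imperfecta, and lies on the plus strand at chr4:119232915-119248975. Its 5′ end region (chr4:119232356-119233941), shared with the divergent gene AU022252, had a level of 6.05 log2 CPM and 5.38 per kb, above 75.9% of coding genes. It held 70.5% of the CPM at the gene. Further regions lay over exon 5, at 4.11 log2 CPM, and near the end of the gene over exons 14 and 15, at 2.80. Both overlapped coding sequence, with annotated starts of P3h1 733 and 509 bp away. An upstream region 514 bp from the start of Gm12898 had a level of 1.79.

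P3h2 encodes a prolyl 3-hydroxylase that acts mainly on basement membrane collagen, and lies on the minus strand at chr16:25959288-26105784. With 21 regions it held more than any of the other 8 genes, and 16 of these lay wholly in intron 1. At 5.12 log2 CPM and 4.70 per kb, the 5′ end region (chr16:26105069-26106405) exceeded 47.4% of coding genes. A region in intron 8 (chr16:25977155-25978498), 127958 bp from the 5′ end and without an annotated start, was higher at 5.42 log2 CPM. It ranked above 94.6% of all regions in the list, with a GC content of 42.5% and a CpG ratio of 0.13, where the 9 regions at 5′ ends had a median ratio of 0.73. Intron 1 regions at 22853 and 102263 bp had levels of 4.56 and 4.31 log2 CPM, and the 5′ end region held 16.6% of the CPM at the gene.

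P3h3 encodes the remaining prolyl 3-hydroxylase, which works with P3H4 in the lysyl hydroxylase 1 complex, and lies on the minus strand at chr6:124841089-124857752. Its 5′ end region (chr6:124856473-124857745) had a level of 4.84 log2 CPM and 4.49 per kb, above 39.5% of coding genes. Upstream regions had levels per kb of 3.97 at the start of Gpr162 and 4.52 at 2213 bp from the 5′ end. A region in intron 9 stood at 3.91 per kb. The order of the 3 P3h promoters per kb was P3h1, P3h2 and P3h3, and P3h1 exceeded P3h3 1.85-fold on that scale. Not divided by width, P3h1 had 66.1 CPM and P3h3 28.7. With 1 pooled level each, the neighbours in these orders could not be tested against a spread.

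Each of the 9 genes had more regions than the median of coding genes within 20% of its length. All 9 have a 5′ end region, as 59.1% of coding genes do, and the comparison genes were not limited to those. Plod1, P3h1 and P3h3 had 4 regions against 3, and each count includes a region within 1000 bp of another gene's start. P3h2 had 21 against a median of 8 and more than 93.7% of 840 such genes. The 30 genes of similar length on its own chromosome, 16, had a median of 13.5 regions, and P3h2 exceeded 83.3% of them. Coding genes of any length had a median of 4 regions on chromosome 16 and 3 over all chromosomes. Coding promoters on chromosome 16 were higher than the 4.77 of all coding genes, with a median of 5.29 log2 CPM per kb. The P3h2 promoter exceeded 34.0% of them. All regions on that chromosome had a lower median level than the whole list, 1.77 against 2.12 log2 CPM. The part of the chromosome in the P3h2 values was not tested. Plod2 had 9 regions against a median of 4 (more than 79.7% of genes of similar length) and P4ha2 6 against 3 (78.9%). On its own chromosome, 11, genes of the length of P4ha2 had a median of 5 regions, and P4ha2 exceeded 61.3% of 155 of them. Plod1 was closest to its class, with 4 regions against 3 (56.2%). The percentages spread from 56.2 to 93.7 with a median of 72.6.

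**Figure D3:**
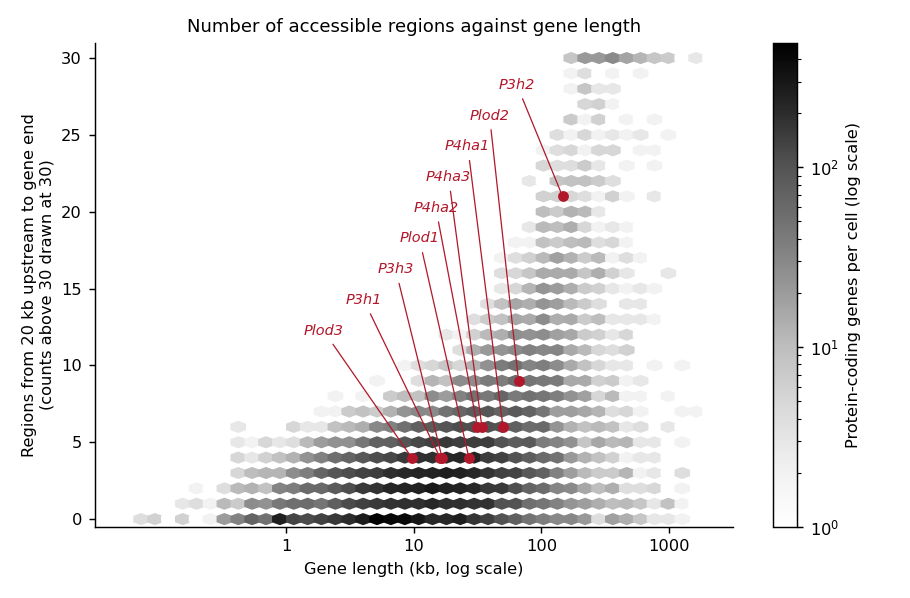
Number of accessible regions (the gene with its upstream 20 kb) against gene length (kb, log scale), with coding genes as grey hexagons (darker for more genes) and the 9 hydroxylase genes as red points. The 9 genes run from 4 regions at Plod3, Plod1, P3h1 and P3h3 to 21 at P3h2.

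HRE cores were counted on both strands as ACGTG or GCGTG, with overlapping matches taken as 1 site. Of the 64 regions 30 held a core (46.9%, 95% Wilson interval 35.2 to 58.9), and 46.2% of all regions did. Regions of the same width (within 10%) held one in 54.7% on average. The share was therefore near the background. All 9 regions at the 5′ ends held a core, as did 87.9% of the regions at 5′ ends of coding genes. Away from any annotated start, 13 of 45 regions held one (28.9%, 17.7 to 43.4) against 38.6% of all such regions. With ACGTG alone the count was 26 of 64 (40.6%, 29.5 to 52.9), against 27.1% of all regions and 33.1% of regions of the same width.

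The cores were concentrated at the 5′ ends, which held 54 of the 90 found. Their density was 4.76 per kb, and in the 5′ end regions of coding genes it was 3.20 per kb. Plod3 held 10 cores in its 5′ end region, P3h2 9 and Plod2 8, where the medians for 5′ end regions of similar width were 5, 4 and 4. P3h1 held 7 (median 5), and P4ha2 and P3h3 6 each (median 4). P4ha3, with 338 bp, held 2 (median 0), both inside the gene. P4ha1 matched its class with 4, and Plod1 was below it with 2 against 3. The gene with the most accessible promoter of the 9 thus did not have the most cores. In 7 of the 9 genes the number exceeded the median of the class, and the share of all coding genes that do so was not computed. The percentage of the class with fewer cores was 64.8 at P4ha2, 72.2 at P3h1, 73.9 at P3h3 and 82.6 at P4ha3. It was 87.9 at Plod2, 92.6 at Plod3, 93.2 at P3h2, 36.1 at P4ha1 and 23.0 at Plod1. The classes match width but not GC content, whose median was 63.1% in the 9 regions and 60.0% in those of coding genes. These are matches to 5 letters, with no measure of HIF binding in these data.

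**Figure D4:**
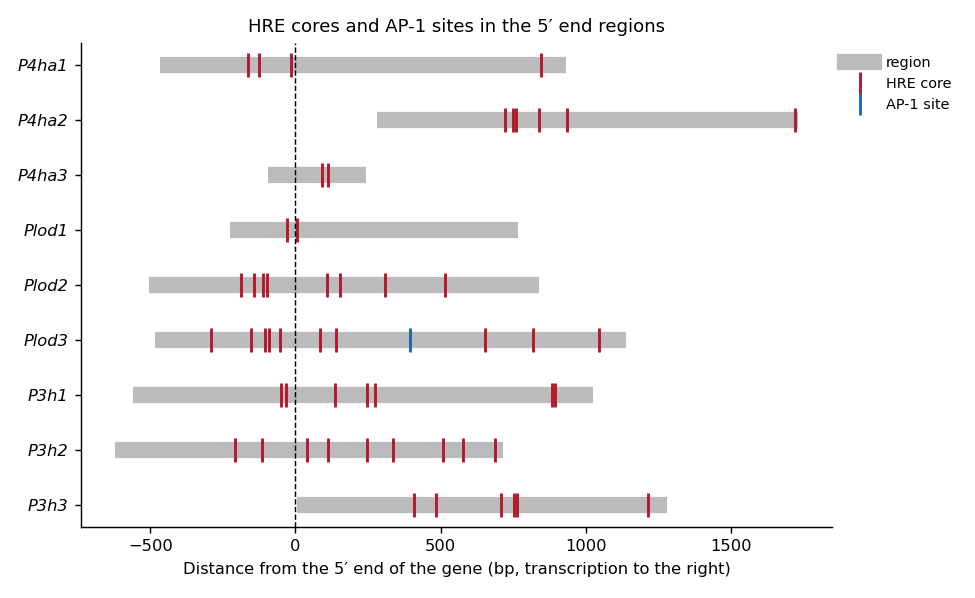
HRE cores (red ticks) and AP-1 sites (blue tick) in the 5′ end region of each gene (grey bar), by distance from the gene's 5′ end (bp). Plod3 has 10 cores and the one AP-1 site, and Plod1 has 2 cores, both beside the 5′ end.

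The P4ha2 region in intron 5 held 4 HRE cores, more than any other region away from a 5′ end except that at the start of 2510039O18Rik upstream of Plod1, which held 5. Sequence is shown around the pair of sites outside any coding gene exon, at chr11:54112826-54112866 and chr11:54112985-54113026 (mm10, plus strand), with the cores in capitals. In the latter the 2 strands overlap as CACGTG and count as 1 site.
P4ha2 intron site a: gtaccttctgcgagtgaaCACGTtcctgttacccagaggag
P4ha2 intron site b: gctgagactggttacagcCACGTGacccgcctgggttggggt

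AP-1, the dimer of Fos and Jun proteins, binds TGACTCA or TGAGTCA, which are each other's reverse complement. Of the 64 regions 17 held this site (26.6%, 17.3 to 38.5), each a single copy, against 22.1% of all regions and 24.5% of regions of the same width. Away from any start the share was 24.4% (11 of 45, 14.2 to 38.7), and 23.7% of all such regions held one. These shares were close to the background. Among the 5′ end regions only that of Plod3 held a site, where 13.3% of the 5′ end regions of coding genes did. P4ha3, Plod2 and Plod3 had 3 regions with a site each, P3h2 4 and P3h3 0.

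Sequence is shown around the AP-1 sites of the P4ha genes and of the upstream regions of Plod3, to give examples of the site outside the 5′ end regions of the 9 genes. Plod3 site a lies in the region that covers the start of Cldn15. The site is in capitals at the centre of 41 bases of the plus strand (mm10), and an HRE core is also capitalised. They lie at chr10:59309565-59309605 (P4ha1), chr11:54090603-54090643 (P4ha2), chr7:100281752-100281792, chr7:100302482-100302522 and chr7:100312893-100312933 (P4ha3 a, b and c), and chr5:136967638-136967678 and chr5:136978216-136978256 (Plod3 a and b).
P4ha1 upstream: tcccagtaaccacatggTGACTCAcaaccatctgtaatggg
P4ha2 upstream: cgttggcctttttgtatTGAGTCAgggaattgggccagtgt
P4ha3 a: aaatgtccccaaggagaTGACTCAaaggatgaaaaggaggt
P4ha3 b: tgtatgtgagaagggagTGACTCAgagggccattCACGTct
P4ha3 c: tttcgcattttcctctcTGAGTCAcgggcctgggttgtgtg
Plod3 a: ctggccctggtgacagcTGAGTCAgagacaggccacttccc
Plod3 b: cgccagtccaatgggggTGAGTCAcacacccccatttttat
Site b of P4ha3, in intron 5, is the only one of these with an HRE core in the same 41 bases.

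TGTGGT, the core bound by RUNX factors such as the osteoblast regulator Runx2, was present in 34 of the 64 regions (53.1%, 41.1 to 64.8), against 42.7% of all regions and 48.0% of regions of the same width. CATTCC, bound by TEAD factors, was present in 24 (37.5%, 26.7 to 49.7), against 31.5% and 36.7%. Both intervals include the share in regions of the same width. GGGCGG, the core of SP factors, was in all 9 regions at the 5′ ends, as in 82.3% of those of coding genes, and in 2 of the 45 regions away from any start (4.44%, 1.23 to 14.8), against 11.0% of all such regions.

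The other genes of collagen maturation were taken from lists, with the 5′ end level per kb as the measure. Of 11 partners of hydroxylation, glycosylation and folding, 9 had a 5′ end region (59.1% of coding genes did), with a median of 5.60 log2 CPM per kb, above the 4.70 of the 9 hydroxylase genes and the 4.77 of coding genes. Not divided by width, the medians were close, at 5.14 log2 CPM for the partners, 5.12 for the hydroxylase genes and 5.04 for coding genes, and the lysyl oxidase genes had the highest, 5.87. P3h4 and Fkbp10, which encode a P3H3 partner and a collagen peptidyl-prolyl isomerase, shared 1 region of 5.98, and with that region counted once the median was 5.52. Colgalt1, the main collagen galactosyltransferase, had 5.95, Serpinh1 (the collagen chaperone HSP47) 5.60 and Ppib (cyclophilin B) 5.44. Crtap, the partner of P3h1, had 4.87. Tmem38b, which encodes an intracellular cation channel, had 4.43 and Colgalt2, a second galactosyltransferase, 3.63, both below the median of the hydroxylase genes. P4hb, which encodes the shared beta subunit of the P4ha enzymes, had no region in its span in the list used here, and Fkbp14 had none at its 5′ end but 6 in its span, 2 of them within 1000 bp of another of its annotated starts.

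Against the same 59.1% of coding genes, of 6 genes for procollagen export and propeptide removal 5 had a 5′ end region (median 4.96), and of 5 lysyl oxidase genes 4 did (median 4.84), with Adamts3 and Loxl2 as the exceptions. All 9 fibrillar collagen genes of the list (types I, II, III, V and XI) had one, with a lower median of 3.80 and a range from 2.81 at Col11a1 to 5.46 at Col5a1. Col1a1 and Col1a2, the chains of bone collagen, had 5.22 and 5.13. The 4 HIF hydroxylase genes, those of the prolyl hydroxylases (Egln1, Egln2, Egln3) and of the asparaginyl hydroxylase (Hif1an), had a median of 4.88, from 3.04 at Egln3 to 5.29 at Hif1an. The hydroxylase genes therefore spanned nearly the full range of their pathway, from P4ha3 near the lowest collagens to P4ha1 beside the highest partners. The lists are small, each gene has 1 pooled level, and no test was made between them.

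**Figure D5:**
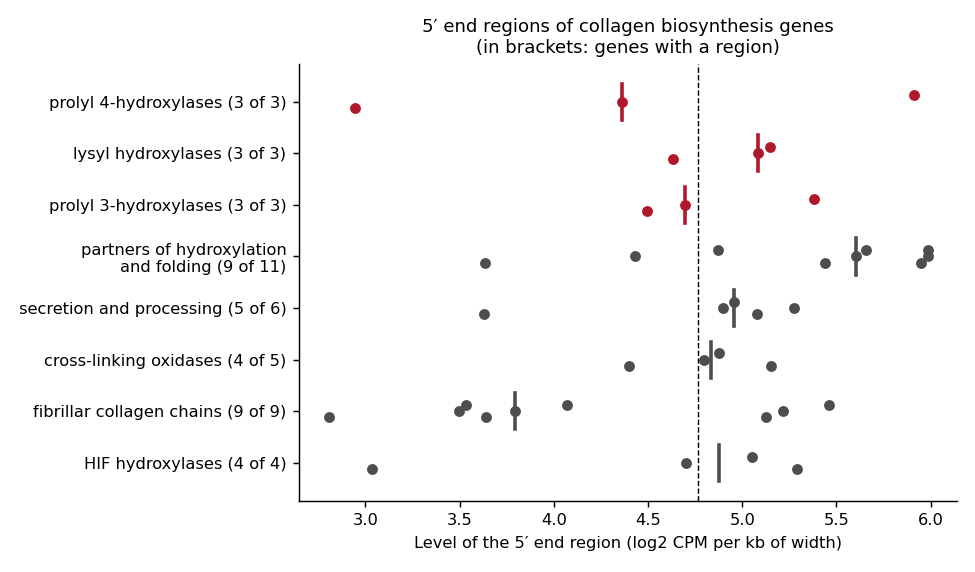
Level of the 5′ end region (log2 CPM per kb of width) for each gene of the collagen biosynthesis lists and the HIF hydroxylases (points), with the list median as a vertical bar, the coding gene median dashed, and the number of genes with a region in brackets. The 3 hydroxylase families (red) run from 2.94 at P4ha3 to 5.91 at P4ha1, and the folding partners have the highest median on this scale, 5.60, but not on the level undivided by width.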

How the data were processed

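Per the paper's methods and the labels, the authors trimmed ATAC-seq reads with Trim Galore, aligned them to mm10 with Bowtie2, removed duplicates with Picard (2.17.8), called and merged peaks with MACS2 (2.2.7.1), excluded blacklisted regions, counted cuts per region and normalised with edgeR (3.24.3). A Tn5 offset correction is not given in the sources used here. The deposited value per region was read as an average log2 CPM over samples, an inference from the values (460 are negative, and their antilogs total 1012760 where CPM over a library total 1000000). It holds no sample's own value, so no group was compared.

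Regions were joined to GENCODE vM21 genes of the same build by overlap (Python 3.11.15, pandas 2.3.3, pysam 0.24.0), with coordinates 1-based. The "5′ end region" is the highest region within 1000 bp of the gene's 5′ end. Motifs were searched in the reference sequence of whole regions. Shares have 95% Wilson intervals and medians order-statistic intervals. Both treat regions as independent draws, although the 64 regions cluster in 9 genes and 21 of them are at P3h2. They hold no error between replicates. Overlap and motif code was tested on simulated data. Promoter sequence in RefSeq matched 7 of the 9 genes (not Plod2 or P3h2). All 9 genes were named by rule. The genes, lists and motifs were chosen with earlier results of these data known. Alternatives changed the span, width filter, joining, start distance and motif spelling.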

Additional observations from a re-analysis of the deposited data

How the results depend on the processing

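Of 28 alternatives to the reported counts and medians, 22 stayed within the limit set for a change and 6 moved. With only regions at least 500 bp wide, 39 of the 64 regions were left and their median level was 3.72 log2 CPM, where all regions of that width had 3.48. Per kb of width the median was 3.63 log2 CPM, against 3.25 for all regions. The stricter HRE spellings ACGTGC or GCGTGC left 12 of the 64 regions with a site (18.75%), against 18.6% of all regions. In the central 200 bp, 16 regions held an HRE core (25.0%, against 24.2%) and 8 an AP-1 site (12.5%, against 12.1%). These counts moved, but each share stayed near that of all regions. A narrower definition leaves fewer by its construction. An upstream limit of 10 kb gave 59 regions and one of 50 kb gave 88. Without P3h2, chosen after seeing the data, the median level was 3.08 log2 CPM over 43 regions. Of these 22 held an HRE core and 13 an AP-1 site, against 46.2% and 22.1% of all regions. No paired analysis was possible because each region has only 1 pooled value, and for the same reason no replicate could be left out. The lowest levels have the fewest cuts behind them.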
